A study of Labeotropheus fuelleborni x Mchenga conophoros and Petrotilapia nigra x Mchenga conophoros and Petrotilapia nigra x Aulonocara baenschi with 10 samples.

Results

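Of the 32455 loci counted in whole brains of Lake Malawi cichlid hybrids, 197 were abundant in every male and had levels that overlapped between males courting over sand and males courting over rock. A gene belonged to this set if it had at least 100 counts in each of 10 libraries and if its level in CPM (counts scaled to a library total of 1000000) was neither above nor below in all 4 social sand males relative to all 4 social rock males. In all, 243 loci reached the count minimum. Of these, 43 were higher and 2 were lower in all 4 social sand males, 1 locus was left out of the set, and the other 197 are the genes described here. The levels of social rock and social sand males therefore chose the genes, and every value that sets these 2 contexts against each other is given below as a description.

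The fish were F1 sons of a rock-dwelling sire and a sand-dwelling dam, and brains were taken during courtship in a tank with simulated rocks on one side and a sandy area opposite. In 4 dyads, 1 male courted over rock (social rock) while a brother from the same brood built bowers and courted over sand (social sand). The dyads came from Petrotilapia nigra x Mchenga conophoros (Petro_MC), Petrotilapia nigra x Aulonocara baenschi (Petro_AB), Maylandia zebra x Tramitichromis intermedius (MZ_TI) and Labeotropheus fuelleborni x Mchenga conophoros (LF_MC), with the sire's species first. The 2 lone males were tested without a rival and showed rock-like behaviour, 1 from the LF_MC cross and 1 from Maylandia zebra x Mchenga conophoros (MZ_MC). All males were adults, an age is not given, and each was 1 library, so a cross is represented by 1 male in each context. The rock male was the larger brother of each dyad by the study's account, so body size and context cannot be told apart. Being alone and cross cannot be told apart for the MZ_MC male, the only male of that cross.

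Messenger RNAs that are plentiful across the whole brain of vertebrates commonly encode proteins that most cells need, such as ribosomal, cytoskeletal and metabolic proteins, together with proteins used by nearly all neurons. Because whole brains pool many cell types, fewer cells of a type and less RNA per cell cannot be told apart in these libraries. The counts carry gene numbers, and numbers were paired with names only through a table of genes that the study itself reported between the contexts. A name was available for 1 of the 197 genes, gene5283, and the other 196 are given by number, with no role.

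Social rock libraries held 492489 to 694114 counts, social sand libraries 206320 to 335551, and the lone libraries 375132 (LF_MC) and 457974 (MZ_MC). The minimum of 100 counts therefore corresponded to 485 CPM in the smallest library, a social sand one, and to 144 CPM in the largest, a social rock one. The left-out locus held 11.6% to 16.7% of the counts in 6 of the 8 brothers, 0.0511% and 0.110% in the LF_MC brothers, and 5.14% in the lone male labelled as the same cross. Of 33 symbols fixed as markers of 9 cell types, 10 gene numbers of 3 types could be paired (neurons, astrocytes and radial glia, and myelin), and none of these was at 0 in any library. The labelled tissue was thus represented by markers of those 3 types, and the other 6 types could not be checked.

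The named gene, gene5283, is annotated as the phosphoinositide phosphodiesterase eta-2, the product of PLCH2 in human. Phospholipases C cut the membrane lipid phosphatidylinositol bisphosphate into inositol trisphosphate, which releases calcium from internal stores, and diacylglycerol, which activates protein kinase C. The eta isoforms respond to small rises in calcium and are known in mouse as enzymes of neurons. In social rock males the gene had 3421 CPM in Petro_MC, 3816 in Petro_AB, 4692 in MZ_TI and 3484 in LF_MC. In their social sand brothers it had 453, 1827, 2593 and 3586 CPM in the same order. The sand brother was the lower one in 3 dyads and lay slightly above his brother in LF_MC, and this LF_MC sand male alone keeps the sand range from lying wholly below the rock range. The Petro_MC sand value rested on 152 counts and was the lowest of the gene's 10 values, 10.4 times below the highest.

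The lone males had 3090 CPM (LF_MC) and 3673 CPM (MZ_MC) of gene5283. The LF_MC lone male lay just below the lowest social rock male, the MZ_MC lone male inside the social rock range, and both lay among or just above the social sand values. Neither comparison of lone males passed the test. On the log2 scale the lone males differed from social rock by -0.33 ± 0.47 (SE; edgeR quasi-likelihood test, adjusted p = 0.970) and from social sand by 0.41 ± 0.46 (SE; adjusted p = 0.550). Among broods the fitted means of the gene spanned 1.27 log2 units (adjusted p = 0.715). Without the Petro_MC social rock male this span was 2.68 with an adjusted p of 0.0106, and without his sand brother it was 0.35, so the Petro_MC sand value decided it.

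A further 7 gene numbers on a list of calcium and phosphoinositide signalling genes, none of them in the set of 197, had names. They were 3 calmodulin genes, which encode the main calcium sensor of the cell, 2 genes of the calcineurin catalytic subunit, a calcium-dependent phosphatase, the calcium sensor visinin-like protein 1, and phospholipase C beta-1. Of all 8 numbers on the list, 5 were higher in lone than in social sand males, none differed from social rock males by the test, and 6 were lower in social sand than in social rock males. Over all genes tested 6.96% were higher in lone than in social sand males and 3.14% lower in social sand than in social rock males. The names come from genes the study had called between contexts on these same social sand males, so neither count is independent evidence. The 5 genes higher in lone males were the calmodulin genes calm2 (log2 difference 3.55), calm3 (3.12) and another calmodulin number (2.14), visinin-like protein 1 (2.42) and 1 calcineurin gene (1.90), with adjusted p from 0.000813 to 0.0145. The second calcineurin gene, ppp3ca (0.88, adjusted p = 0.112), and phospholipase C beta-1 (1.15, adjusted p = 0.0583) did not pass, nor did gene5283. Whether gene5283 differed from its list in these contrasts was not tested.

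**Figure D1:**
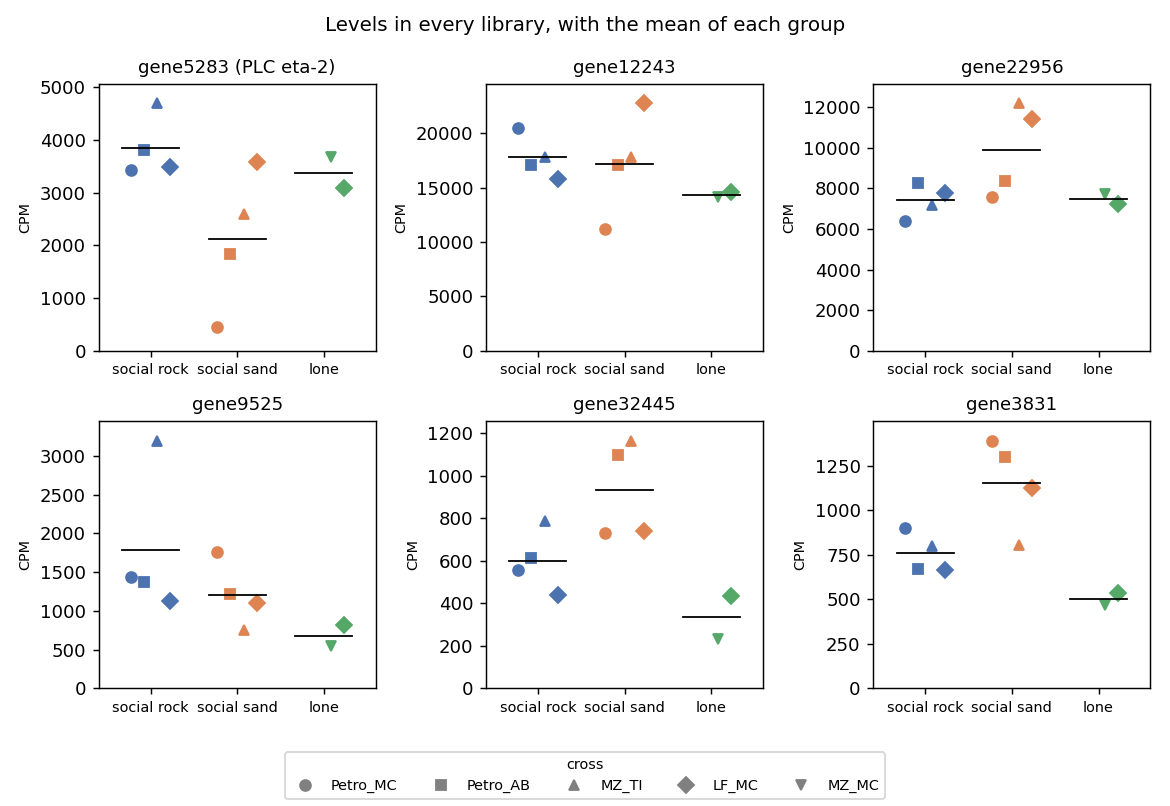
CPM (vertical axes, each from 0) of 6 genes in all 10 libraries by context, with point shapes for crosses and black lines for group means. The Petro_MC sand male has 453 CPM of gene5283, and both lone males lie below every brother for gene32445 and gene3831.

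Mean levels of the 197 genes over 10 libraries ran from 402.1 to 16872 CPM, with a median of 958.0 CPM. The distribution was steep at the top, with 104 genes under 1000 CPM and 34 over 2000 CPM. Gene lengths were not used here, so this order is one of fragments counted and not of transcripts per cell. The 5 genes with the most counts, gene12243, gene22956, gene5318, gene4154 and gene16041, held 12.2% to 16.2% of the set's counts in each library.

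The most abundant gene was gene12243. It had 20500, 17066, 17835 and 15825 CPM in the social rock males of Petro_MC, Petro_AB, MZ_TI and LF_MC, and 11185, 17056, 17816 and 22746 CPM in their sand brothers. The lone males had 14587 and 14106 CPM. The sand males held both the highest and the lowest of these values, with the lone males next above the lowest. For gene22956 the social rock males had 6410, 8285, 7170 and 7753 CPM, the sand males 7564, 8366, 12179 and 11397 CPM and the lone males 7219 and 7714 CPM. Here the sand brother was the higher one in all 4 dyads, yet the Petro_MC sand male still lay inside the rock range.

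For the other 3 of the 5, levels of gene5318 ran from 5270 CPM in the LF_MC lone male to 9175 CPM in the LF_MC sand male. Those of gene4154 ran from 4574 to 6482 CPM between the same males, and gene16041 from 2968 CPM in the Petro_MC sand male to 5888 CPM in the LF_MC sand male. The LF_MC sand male thus had the highest level of 4 of the 5 genes, and the MZ_TI sand male that of gene22956.

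Over the whole set, the 197 genes held 28.7%, 28.4%, 28.0% and 23.9% of all counts in the social rock males of Petro_MC, Petro_AB, MZ_TI and LF_MC. They held 26.9%, 29.3%, 32.0% and 36.1% in the sand brothers, and 22.7% and 23.8% in the LF_MC and MZ_MC lone males. The 95% Wilson intervals of these shares were at most 0.393 percentage points wide and cover counting error only. The LF_MC rock male stood with the lone males, and his sand brother had the largest share of all, so the LF_MC dyad spanned nearly the whole range. With the left-out locus taken out of the totals, the shares were 32.8%, 34.0%, 31.6% and 24% in social rock, 32.2%, 33.5%, 37.9% and 36.2% in social sand and 23.9% and 26.6% in lone males, and the LF_MC rock male remained with the lone males.

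Summed marker levels ran opposite to these shares across groups. The marker names come from genes the study had called between contexts on these same brothers. Low social sand sums were thus favoured in advance and are not independent evidence. The 4 neuronal marker numbers summed to 1828 to 4627 CPM in social rock, 815 to 1284 CPM in social sand and 3424 to 4577 CPM in lone males. The 4 astrocyte and radial glia numbers summed to 1494 to 4661, 549 to 1093 and 3035 to 3431 CPM, and the 2 myelin numbers to 1326 to 3690, 337 to 850 and 2692 to 3269 CPM. In each of the 3 lists the LF_MC rock male, who had the lowest social rock share, held the highest social rock sum. Within social sand this inverse order did not hold. The LF_MC sand male, who had the largest share, also held the highest social sand sums of astrocyte and myelin numbers (1093 and 850 CPM). His neuronal sum was not the highest. Both lone males lay far above every social sand male in each list. The part of cell type markers in the levels of the 197 genes was not tested.

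**Figure D2:**
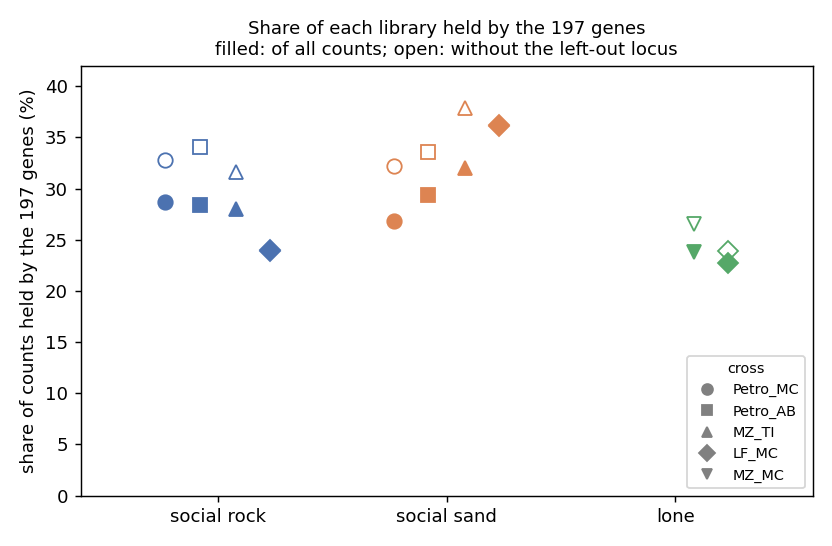
Share of each library's counts held by the 197 genes (vertical axis, percent) for social rock, social sand and lone males, 1 point per library and point shapes for crosses. Filled points are shares of all counts and open points leave 1 abundant locus out of the totals. The LF_MC rock male (23.9%) lies with the lone males (22.7% and 23.8%), and the LF_MC sand male is the highest (36.1%).

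The extremes of single genes followed the same libraries. The highest of the 10 values was in a social sand male for 165 of the 197 genes, in a social rock male for 30 and in a lone male for 2. The LF_MC sand male alone held 89 of these maxima and the MZ_TI sand male 43. The lowest value was in a lone male for 100 genes, in a social rock male for 62 and in a social sand male for 35, and the LF_MC rock male held 36 of the minima. The count minimum favours genes high in the social sand libraries, which had the fewest counts. Extremes were not counted over all genes, so these numbers are a description. Within the set the order of the genes was much alike in all libraries. Across the 197 genes Pearson's r of log2 CPM between libraries ran from 0.858 (Petro_MC sand male with MZ_MC lone male) to 0.971 (LF_MC rock male with LF_MC lone male), with a median of 0.911 over all pairs. These genes share libraries, depth and the minimum count, and they are not independent replicates.

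Most of the genes varied several times more between brains than counting alone would give. The coefficient of variation (CV, SD over mean of the 10 CPM values) had a median of 22.1% and ran from 8.92% to 55.9%, against a median of 5.42% expected from counting. All 197 genes exceeded the CV expected from counting, although for 3 of them by no more than 2 times. For 71 genes the CV was below 20%, and for 8 it was above 40%. The highest library was less than 2 times the lowest for 105 genes and at least 3 times the lowest for 16.

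**Figure D3:**
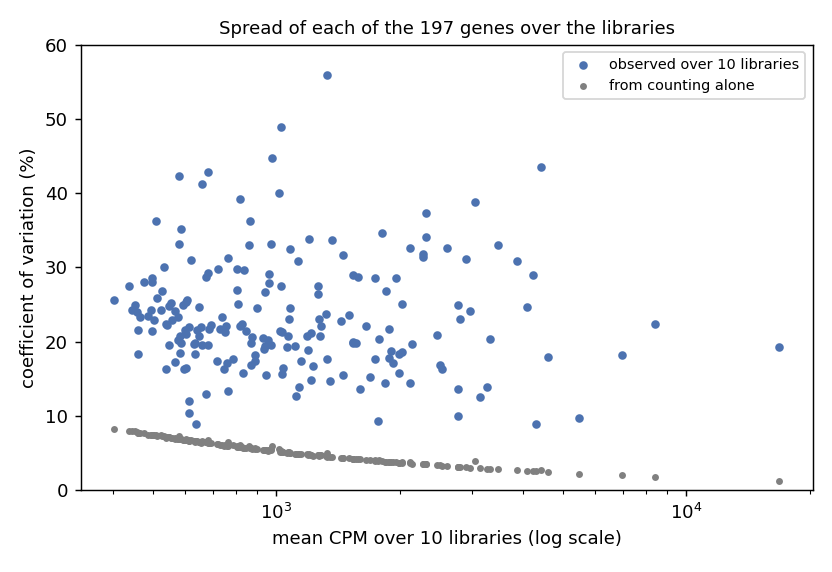
Coefficient of variation over 10 libraries (vertical axis, percent) against mean CPM (horizontal log axis) for each of the 197 genes, observed in blue and expected from counting alone in grey. Observed values run from 8.92% to 55.9% and lie above the counting values, which fall from 8.30% to 1.29% with level.

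The gene with the smallest CV was gene1521, at 4522, 4911, 4611 and 3746 CPM in social rock, 4533, 4323, 4253 and 4432 CPM in social sand and 3671 and 4109 CPM in lone males. The LF_MC rock male and the LF_MC lone male had the lowest levels, and the other 8 libraries lay within a narrow range. The next smallest was gene4488, with 574 to 738 CPM in social rock, 603 to 697 CPM in social sand and 574 to 629 CPM in lone males, so that all 3 groups overlapped. Its CV of 8.93% was close to the 6.57% that counting gives at this level.

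At the other end stood gene9525, with a CV of 55.9%. It had 1442, 1376, 3196 and 1127 CPM in the social rock males and 1755, 1221, 751 and 1097 CPM in the sand brothers, and 816 and 548 CPM in the lone males. The MZ_TI rock male was far above all others while his sand brother was the lowest of the 8 brothers, so the widest gap fell inside 1 brood. The second largest CV, 48.9%, belonged to gene16320, at 1064, 619, 783 and 880 CPM in social rock, 1082, 1221, 680 and 2314 CPM in social sand and 1056 and 572 CPM in lone males. Here the LF_MC sand male stood apart from 9 others between 572 and 1221 CPM.

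Within a context the spread of the 197 genes was wider than that of the 45 abundant genes whose contexts did not overlap. The median CV was 15.2% in social rock and 19.6% in social sand males for the 197, and 11.9% and 11.4% for the 45. The rule favours this, since a gene that varies within a context overlaps the more readily, and no test was made of it. Counting accounts for a median of 4.53% in social rock and 6.0% in the shallower social sand libraries.

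Genes just inside and just outside the limits of the set were alike. At the count minimum, gene10234 and gene21554 were just inside with a lowest count of 100, and gene4600, gene5674 and gene11919 were just outside with 99. At the limit of overlap, the lowest sand value of gene19065 (1362 CPM) was just under the highest rock value (1364 CPM), a ratio of 0.998, and gene16543 had a ratio of 0.992. The nearest genes beyond it, gene26295 and gene21967, had ratios of 1.005 and 1.009.

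Between the contexts that chose them, the 197 genes leaned toward higher levels in social sand. The count minimum itself favours genes high in sand. It stood at 485 CPM in the smallest sand library and at 144 CPM in the largest rock library. Under the rule 43 loci were higher and 2 lower in every social sand male than in every social rock male. Where a mean of 100 counts sufficed, these numbers were 67 and 55. The lean and the counts of pairs are therefore a description. A gene could be compared in 16 pairs of a sand and a rock male, and sand was the higher in more than 8 of 16 pairs for 158 genes, in fewer for 26 and in exactly 8 for 13. In 20 genes sand was higher in 15 of the 16 pairs. The reverse, sand higher in 1 of 16 pairs, was seen for 1 gene, gene13401, picked out after its values were seen. It had 2849, 2531, 3313 and 2706 CPM in social rock, 1922, 1910, 2374 and 2693 CPM in social sand and 2460 and 2295 CPM in lone males, and its sand brother was the lower one in every dyad.

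Within dyads the sand brother was higher in all 4 broods for 37 genes, in 3 for 95, in 2 for 48, in 1 for 16 and in none for 1. Over all 7733 genes that passed edgeR's low-count filter, the corresponding shares were 8.41%, 19.1%, 25%, 26.6% and 21.0%. Those genes did not have to meet the count minimum, which favours genes high in sand, so they are not a matched background. By dyad, the sand brother was higher for 100 of the 197 genes in Petro_MC, 121 in Petro_AB, 141 in MZ_TI and 183 in LF_MC. With edgeR's TMM scaling, which sets libraries level on the bulk of their genes, the counts were 127, 104, 179 and 191, so Petro_MC and Petro_AB changed places while LF_MC stayed first. The median difference of the genes between LF_MC brothers was 0.60 on the log2 CPM scale, against 0.00 in Petro_MC, 0.09 in Petro_AB and 0.25 in MZ_TI. With TMM scaling these medians were 0.80 in LF_MC, 0.15 in Petro_MC, 0.04 in Petro_AB and 0.56 in MZ_TI.

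**Figure D4:**
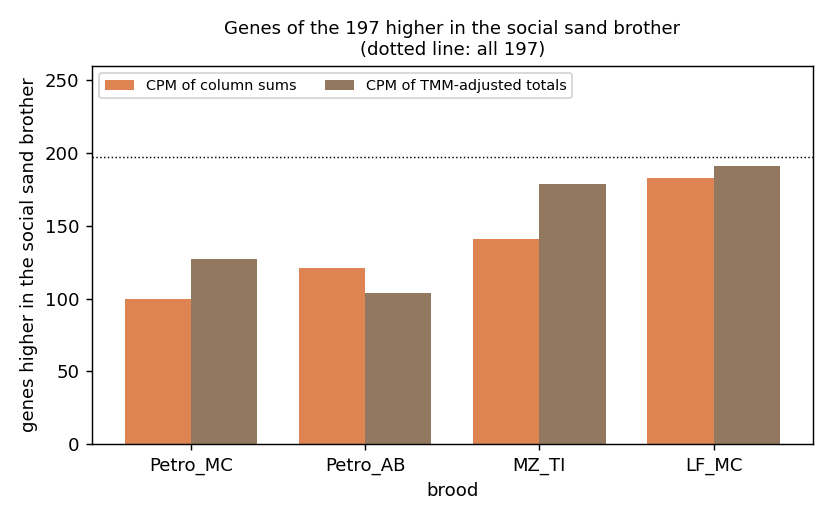
Number of the 197 genes with the higher level in the social sand brother (vertical axis, from 0) in each of the 4 broods, with CPM from column sums and from TMM-adjusted totals, and a dotted line at 197. The LF_MC dyad is the highest by either scaling (183 and 191), and the order of Petro_MC and Petro_AB changes with the scaling.

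No gene of the set was called between social sand and social rock at an adjusted p under 0.05 and a fold of at least 2, against 3.47% of all genes tested (0.323% higher and 3.14% lower in sand). Since the rule used this contrast, nothing is read from the count. The study itself reported gene5283 between these contexts, at a fold of at least 2 and an adjusted p under 0.05. Here the log2 difference of gene5283 was -0.75, the lowest of the set, and it was not called. The reason for this disagreement was not tested. An unadjusted p under 0.05 was found by edgeR for 48 of the 197 genes and for 1675 of all 7733. DESeq2 and limma-voom also called none of the set, while 1 was called with brood as a block. The median log2 difference was 0.38 for the set and -0.07 for all genes tested, which did not have to meet the count minimum. Without the fold limit 1 gene had an adjusted p under 0.05, gene14459, which was picked out after its values were seen. It had 954, 879, 1153 and 1226 CPM in social rock and 1806, 1905, 1118 and 2282 CPM in social sand, and only the MZ_TI sand male lay inside the rock range.

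The rule did not compare lone males with the others, but it used their libraries, as it did all 10, for the minimum of 100 counts, and it used the levels of the social rock and social sand males they are set against. The set was lower in lone males than in social rock males for nearly all genes, but none passed the test. Of the 197 genes, 189 had a log2 difference below 0 and 8 above, with a median of -0.37 (quartiles -0.49 and -0.25) beside 0.05 for all 7733 genes. The 45 other abundant genes leaned the same way, with a median of -0.31 and 43 of 45 below 0, so the lean is not particular to the set. The edgeR quasi-likelihood test called no gene of the set, and the background was 0.0% of all genes. At an unadjusted p under 0.05 stood 22 genes of the set, all lower in lone males, and 275 of all genes. DESeq2 and limma-voom also called none of the set, with 21 and 24 genes at an unadjusted p under 0.05.

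The smallest unadjusted p of this contrast belonged to gene9525, whose lone values lay below all 4 social rock males (log2 difference -1.55 ± 0.42 (SE), adjusted p = 0.970 by edgeR). The MZ_TI rock male, high for this gene, is part of that difference. Single males moved these values in either direction. Without the LF_MC rock male the median difference was -0.56 and 93 genes reached an unadjusted p under 0.05, while without any one of the other social rock males or either lone male 5 to 10 did, with medians from -0.28 to -0.49. With total counts as the only scaling the median was -0.20 with 11 such genes, and with brood as a block it was -0.24 with 1.

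Against social sand males, 15 of the 197 genes (7.61%) were called lower in lone males and none higher. Over all genes tested 8.48% were called, 1.53% lower and 6.96% higher, so lower calls were the rarer kind over all genes. The social sand levels of this test also entered the rule, and its count minimum stood at 485 CPM in the smallest sand library against 144 CPM in the largest rock library, so the rule favours genes high in sand and the share in the set is given as a description. Of all genes 538 were higher and 118 lower, and with total counts as the only scaling 717 and 39. The difference was below 0 for 195 of the 197 genes, and 135 had an unadjusted p under 0.05, all of them lower. Of all 7733 genes, 2362 had such a p, 849 of them lower. The median log2 difference of the set was -0.74 (quartiles -0.89 and -0.57), beside 0.07 for all genes. The exceptions above 0 were gene5283 and gene15262 (0.34, adjusted p = 0.447), the latter picked out after its values were seen. The 45 other abundant genes had 17 lower calls and 1 higher.

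Median standard errors were 0.30 in the set and 0.64 over all genes, so equal differences were more readily called in the set. Lone against rock and lone against sand share the lone males, and the set itself leans toward sand. All 15 called genes also had values below 0 against social rock, from -1.12 to -0.48, none of them called there. Their differences from social sand ran from -1.80 to -1.02 with a median of -1.16 and adjusted p from 0.00833 to 0.0477.

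The called gene with the smallest p was gene3831, at 897, 668, 798 and 664 CPM in social rock, 1389, 1299, 805 and 1125 CPM in social sand and 536 and 469 CPM in lone males. Both lone values lay below all 8 brothers, and the log2 difference from social sand was -1.48 ± 0.30 (SE, adjusted p = 0.00833). The next was gene32445, at 556, 615, 787 and 442 CPM in social rock, 730, 1100, 1165 and 742 CPM in social sand and 435 and 234 CPM in lone males. Its LF_MC lone male was just under the LF_MC rock male, while the MZ_MC lone male had the lowest level by far, and the difference from social sand was -1.80 ± 0.39 (SE, adjusted p = 0.0108).

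These calls rested on 2 lone males. Leaving out either of them left no called gene in the set, and leaving out the MZ_TI sand male left 2, the Petro_MC sand male 4, the Petro_AB sand male 7 and the MZ_TI rock male 9, while 27 were called without the LF_MC rock male. With brood as a block, the only lone male left is the LF_MC one, set against the LF_MC dyad. The difference between contexts in that fit is shared over all dyads, so the other dyads enter the comparison too. The median log2 difference from social sand was -0.64. That fit takes the LF_MC lone male as a brother of the dyad by the series' description, although the left-out locus held 5.14% of his counts against 0.0511% and 0.110% in theirs, and his brood was not tested. With total counts as the only scaling 3 were called and the median moved to -0.41, but the median of all genes rose to 0.40, so the set lay 0.81 below all genes on either scale.

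**Figure D5:**
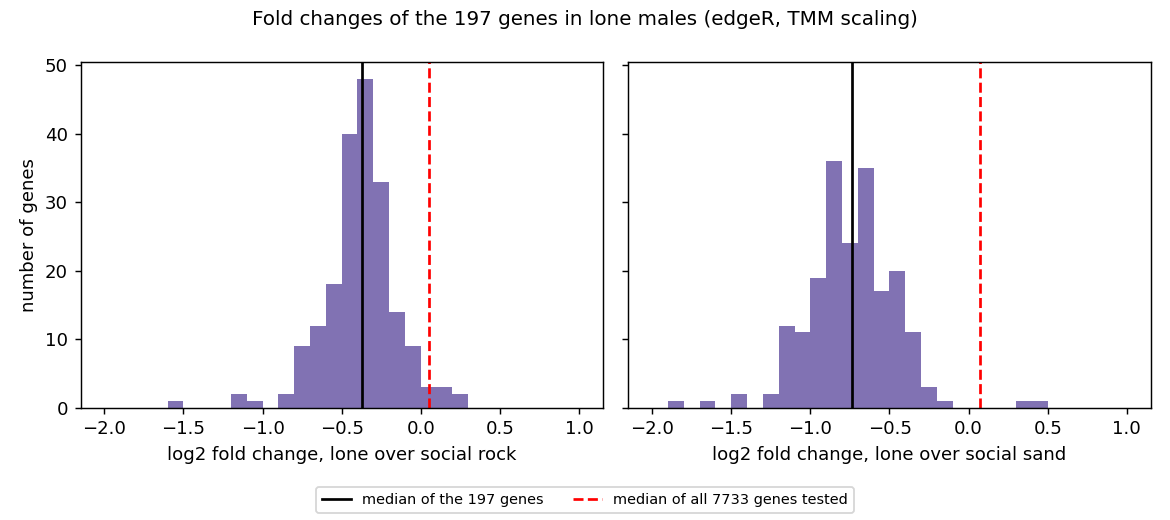
Number of genes (vertical axis) by log2 difference of lone males from social rock (left) and from social sand (right), edgeR with TMM scaling, for the 197 genes. Solid lines mark the medians of the set (-0.37 and -0.74) and dashed lines those of all 7733 genes tested (0.05 and 0.07).

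Ranges in the same libraries gave the same order of groups. Both lone males lay below all 8 brothers for 35 of the 197 genes (17.8%), against 2.79% of all genes tested, and above all 8 for none, against 5.08%. Of the 45 other abundant genes 13 were below all 8, so this too is not particular to the set. With TMM-scaled CPM the count below was 38 of the 197, against 3.92% of all genes tested. With totals that leave out the abundant locus it was 28 of the 197, against 2.72% of all genes tested. Both lone males were below all 4 social sand males for 95 of the 197 genes, against 9.3% of all genes tested. They were below all 4 social rock males for 50 of the 197, against 5.28% of all genes tested. Of the 15 called genes, 14 were below all 4 social sand males, 10 below all 4 social rock males and 9 below all 8. The 15 were called on these same libraries, so their ranges are not further evidence.

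Differences between broods were tested over the 8 brothers with context as a covariate. The levels of these same 8 brothers chose the set. The rule favours genes that vary within a context, brood differences included, so the values of the set are a description. No gene of the set was called at an adjusted p under 0.05, against 1.4% of all genes tested (68 of 4862). By unadjusted p under 0.05 there were 8 genes of the set and 373 of all 4862. DESeq2 called 1 of the set and limma-voom called 2. The fitted brood means of the set spanned a median of 0.46 log2 units, and those of all genes 0.87. For the 45 other abundant genes the median span was 0.40 and 0 were called, so neither value is particular to the set.

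The lowest adjusted p was that of gene19117, picked out after its values were seen. It had 1306, 1533, 1040 and 291 CPM in social rock and 1124, 1381, 1360 and 694 CPM in social sand, with 650 CPM in the LF_MC lone male and 413 CPM in the MZ_MC one. All 3 LF_MC males and the MZ_MC male lay below the 6 brothers of the other crosses. Its brood means spanned 1.89 log2 units (edgeR F test, adjusted p = 0.0545), and it was called in 10 of 17 alternatives. Some of these left out a single brother, which leaves 1 male in his brood, so the side of the threshold was not settled by these libraries. Without the LF_MC rock male, the lowest of the brothers, the span fell to 1.29. With no context term in the edgeR F test it was 1.79 (adjusted p = 0.907).

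Likeness over the 197 genes was measured by distance. Distances were Euclidean, over log2 CPM from TMM-adjusted totals (prior count of 2). The mean distance was 8.20 ± 3.12 between brothers of a dyad (SD of 4 pairs) and 8.35 ± 2.70 between other pairs of opposite context (SD of 12 pairs). These means differed by less than the spread of the pairs. The 4 dyads differed widely, from 4.94 in Petro_AB and 6.51 in Petro_MC to 9.36 in MZ_TI and 12.0 in LF_MC. Social rock pairs were 7.26 ± 2.31 apart and social sand pairs 6.88 ± 0.80 (SD of 6 pairs each).

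Lone males were 7.63 ± 2.35 from social rock and 11.8 ± 1.59 from social sand males (SD of 8 pairs each). The nearest library to the LF_MC lone male was the LF_MC rock male, at 3.39, and the MZ_MC lone male was also nearest to that male, at 5.18, about as far as to the other lone male (5.19). The nearest library to the LF_MC sand male was not a brother but the Petro_MC rock male, at 6.13. The pairs share libraries and the genes were chosen on the brothers, so these distances are descriptive.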

How the data were processed

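Whole-brain mRNA of 10 F1 males was sequenced from stranded libraries. Reads of mean quality below 20 were discarded by the authors, who also clipped poor 3' ends (NGS QC Toolkit). Alignment was to MZ_UMD2a (TopHat 2.0.9), followed by samtools 0.19. The deposited values are unnormalised HTSeq 0.6.1 counts, 1 per locus and fish. In the notes of the submitters edgeR 3.6.8 is listed too. For the annotation, the strand setting and fragments that align more than once, the processing is not given in the sources used here. Overlapping or near-identical loci may therefore share fragments.

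Except where TMM scaling is named, CPM was computed from column sums, and thresholds used those values. Genes kept by edgeR's filterByExpr (minimum count 10) entered a TMM-scaled quasi-likelihood fit of 3 groups in edgeR 4.0.16 under R 4.3.3. Adjusted p-values are Benjamini-Hochberg over all genes tested. Broods were tested over 8 brothers by an F test with context as covariate. All 197 genes passed both filters. The tests were tested on simulated data. Fits with limma 3.58.1 and DESeq2 1.42.0, other scalings, filters, samples, depth and a block were alternatives, and totals without the left-out locus were added after the data were seen. Figures were drawn with matplotlib 3.10.9.

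Total counts of 206320 to 694114 per library give the set a median counting CV of 5.42%. Groups were taken from the labels. Nothing beyond separate fish backs the replicates, so p-values measure only the spread between these samples. By the series' description males of a cross are brothers of 1 brood, so brood numbers pair the dyads. Deviations of brothers from their context means correlated across genes at 0.0666 (Petro_MC), 0.197 (Petro_AB), 0.126 (MZ_TI) and 0.213 (LF_MC).

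The members and lists were chosen with earlier results of these data known. Named were members with a name in the study's table of reported genes (812 names used), the 5 most abundant, those with the 2 largest and 2 smallest CVs, those at the limits of the rule and at most 2 called unnamed genes per direction. Genes outside this rule are marked as picked out after their values were seen. The lists on vesicle release, granins, cytoskeleton, myelin, astrocytes, chromatin and chaperones held no member, and no number was paired for translation or mitochondrially encoded genes. No sequence or position was used here.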

Additional observations from a re-analysis of the deposited data

Results flagged for a closer look

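Within the 4 social rock or the 4 social sand males, the spread of 40 sets of values was examined for a single male far from the others. Of these sets, 2 stood out. Chance alone gives about 1 in 20 where sets are not chosen by their values, and 2 of 40 is about that number. One of the 2 was gene9525, named for its large CV over these same libraries, so that rate does not hold for it. The other was a share over genes that the rule chose by the levels of these same males. The rate does not hold for that share either. The sets also share libraries. The MZ_TI social rock male had 3196 CPM of gene9525, while the next highest social rock male had 1442 CPM and the lowest 1127 CPM. The LF_MC social rock male had 23.9% of his counts in the 197 genes, while the next lowest social rock male had 28.0% and the highest 28.7%. His left-out locus held 0.0511% of counts against 11.6% or more in the other social rock males, and without that locus in the totals his share was 24% against 31.6% or more.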

How the results depend on the processing

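The size of the set depended on the count minimum, with 416 genes at a minimum of 50, 95 at 200 and 483 where a mean of 100 sufficed. With TMM-adjusted totals 188 were selected (180 of the 197 among them), without the 10 most abundant genes 208 (192) and without the left-out locus 209 (193). The set's median differences kept their sign under the alternatives run. So did the differences of lone males examined for gene5283, gene9525 and the 15 called genes. Other named genes were not examined in this way, and brood spans have no sign. The medians of all genes, close to 0, did not keep their sign. For lone against social rock that median fell to -0.08 without the LF_MC lone male and was below 0 in several other settings, such as -0.05 without a filter. It was -0.12 with thinned counts for lone against social sand. Between contexts it was 0.03 with lone males counted as social rock.

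Lone against social rock, all genes called numbered 52 without a low-count filter (1 in the set, gene9525), 3 without the left-out locus and 0 to 9 with a library left out (0 to 0 in the set). Lone against social sand, all genes called were 308 by limma-voom, and 133 to 937 with a library left out. In the set 3 were called with total counts only, 8 without a filter and 0 to 27 with a library left out, and 12, 16, 15, 11 and 16 with DESeq2 size factors, DESeq2, limma-voom, thinned counts and no left-out locus. The set's median there was -0.84 to -0.66 with a library left out and -0.41 with total counts only.

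For social sand against social rock, 268 genes became 627 without a filter, 480 by DESeq2, 29 by limma-voom, 744 with lone males counted as social rock (1 in the set) and 89 to 468 with a library left out (0 to 1 in the set). For broods, 68 became 42 with total counts only, 212 without a filter (1 in the set), 114 by limma-voom (2), 24 with thinned counts, 12 without the context term, 227 with the lone brother added (1) and 49 to 124 with a library left out (0 to 2). DESeq2 and the totals without the left-out locus each called 1 of the set.

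With brood as a replicate block, all genes called were 17 for lone against social rock, 49 for lone against social sand and 507 between contexts, with 0, 0 and 1 in the set. The MZ_MC lone male drops out of the block fit, having no brother. The difference under the block was -1.13 for gene3831 (adjusted p = 0.389) and -0.86 for gene32445 (adjusted p = 0.544). The causes of these changes were not tested. Depth limits the set to genes of at least 485 CPM in the smallest library.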
